A study of Mus musculus with 2 samples.

Results

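The *Hox* genes encode transcription factors that give cells their position along the axis from head to tail. In mammals they lie in 4 clusters, *Hoxa* to *Hoxd*, and are sorted by sequence into paralog groups numbered 1 to 13. Genes of low group number are used towards the hindbrain and genes of high number towards the tail, and the order of the genes along a cluster follows the order in which they are used. The forebrain and midbrain form ahead of the region where *Hox* genes are used, and mesenchymal cells of many adult tissues keep the *Hox* code of the place they came from. All genes with a symbol of the form *Hox*, a cluster letter from a to d and a number were taken, which gave 39 genes, under 40 identifiers, of the 31017 gene symbols listed (*Hoxd4* has 2 identifiers).

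The genes were read in 2 droplet libraries of cultured primary brain pericytes (PCs, the mural cells of capillaries) from wild type female C57BL/6N mice that were 6 to 8 weeks old. One library came from a culture at passage 5 (PC5) and the other from a culture at passage 20 (PC20), each begun from the pooled brains of 6 mice. Both were grown first in a medium for endothelial cells and then in Pericyte Medium, and the labels carry no transgene, mutation or drug. By the study's methods the olfactory bulb, cerebellum and medulla were taken off before the tissue was digested, and the PC5 and PC20 cells were separate isolations, whereas the text that accompanies the deposited data mentions just 1 set of 6 mice. By the first account, a difference between passages cannot be told apart from one between isolations.

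The files held counts of unique molecular identifiers (UMIs, each marking 1 captured RNA molecule) made with a kit that reads the 3′ end of each RNA, so that a UMI stands for 1 molecule whatever the length of the gene. Cells were kept if they had over 1000 genes and if mitochondrial genes gave less than 20% of their UMIs, 9950 of 10629 in PC5 and 4749 of 4884 in PC20. Kept cells held 223054273 UMIs in PC5, with a median of 21700 per cell, and 191122251 in PC20, with a median of 33424. The libraries shared 20 cell barcodes, all of them kept in both. Expression is given as counts per 1000000 UMIs (CPM), the UMIs of a gene summed over the kept cells of a library over all its UMIs. With 1 UMI a gene stood at 0.00448 CPM in PC5 and at 0.00523 CPM in PC20. Values in parentheses are exact 95% intervals, and they cover counting error only. Each passage is 1 library, so differences have no replicate check and were not tested.

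The labelled cell type was checked against markers of 7 classes, none of them epithelial or neuronal. Of 5 PC markers, 4 were on in PC5 and 2 in PC20, and the level of *Pdgfrb*, the receptor by which PCs are usually recognised, was 44.6 CPM in PC5 against 5.43 CPM in PC20. Of 4 fibroblast markers, 4 were on in PC5 and 1 in PC20, and of 3 smooth muscle markers 2 and 1 were on. The endothelial marker *Cdh5* was on in PC5 alone, at 168 CPM against 0.0262 CPM, while *Pecam1* and *Cldn5* were on in neither library. No microglial or oligodendrocyte marker was on in either library, and 2 and 1 of 2 astrocyte markers were. The marker sums were 53.9 and 8.53 CPM for PCs, 1302 and 101 CPM for fibroblasts, 283 and 49.5 CPM for smooth muscle cells, 169 and 0.178 CPM for endothelial cells, 0.520 and 0.0157 CPM for microglia, 0.915 and 0.895 CPM for oligodendrocytes and 151 and 229 CPM for astrocytes, PC5 first. The sums for PCs, fibroblasts, smooth muscle cells, endothelial cells and microglia were higher in PC5, as the *Hox* sum was. The oligodendrocyte sums were about level and the astrocyte sum was higher in PC20. The part of these classes in the *Hox* results was not tested. In cells without a *Hoxb9* UMI, the epithelial genes *Krt18* and *Wfdc2* were at 0.153 and 0.147 CPM in PC5 and at 913 and 369.5 CPM in PC20. The collagen gene *Col1a2* was at 1729.5 and 0.0473 CPM. Whether both libraries hold the same kind of cell was not tested.

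Each Hox protein binds DNA through its homeodomain, which the homeobox encodes. The homeobox was found in 39 of 39 genes, from the codons for tryptophan, phenylalanine, glutamine and asparagine that follow each other in the third helix, the helix that reads the bases of the DNA. The homeoboxes of *Hoxb9*, *Hoxb8* and *Hoxc13* are shown because the results turn on these genes, coding strand from 5′ to 3′, in lower case with those 4 codons in capitals, as read from GENCODE mouse release M21.
Hoxb9: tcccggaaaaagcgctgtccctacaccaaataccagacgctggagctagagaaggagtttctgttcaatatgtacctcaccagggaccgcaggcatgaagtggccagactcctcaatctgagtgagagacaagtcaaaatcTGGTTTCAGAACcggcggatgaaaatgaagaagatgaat
Hoxb8: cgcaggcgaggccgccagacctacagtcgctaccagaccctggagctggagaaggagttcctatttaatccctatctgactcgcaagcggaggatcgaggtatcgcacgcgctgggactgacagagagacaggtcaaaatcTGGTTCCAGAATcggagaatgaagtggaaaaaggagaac
Hoxc13: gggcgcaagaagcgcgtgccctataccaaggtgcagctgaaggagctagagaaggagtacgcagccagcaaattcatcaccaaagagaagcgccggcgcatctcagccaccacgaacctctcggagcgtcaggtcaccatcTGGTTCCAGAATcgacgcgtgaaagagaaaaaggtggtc

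Each of these stretches of 180 bases lay within exon 2 of a gene of 2 exons, all of it coding sequence. On GRCm38 the *Hoxb9* homeobox was at chr11:96274659-96274838 on the plus strand, *Hoxb8* at chr11:96284174-96284353 on the plus strand and *Hoxc13* at chr15:102927210-102927389 on the plus strand. The *Hoxb9* homeobox shared 152 of its 180 bases with that of *Hoxd9*, 151 with *Hoxc9* and 147 with *Hoxa9*, its paralogs, but 116 with that of its neighbour *Hoxb8* and 103 with *Hoxc13*. Over whole transcripts, the longest run of bases that *Hoxb9* had in common with another *Hox* gene was 50 bases (*Hoxc9*), against 32 for *Hoxb8* (*Hoxd8*) and 21 for *Hoxc13* (*Hoxd4*).

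Most of the *Hox* family was silent at this depth in both cultures. PC5 held UMIs of 15 of the 39 genes and PC20 of 8, and 23 genes had no UMI in either library. Among all listed genes, 66.3% had a UMI in PC5 and 61.7% in PC20. A count of 0 allows a level of up to 0.0134 CPM in PC5 and 0.0157 CPM in PC20 (3 UMIs, the limit used here for a count of 0), and the exact 95% intervals of a count of 0 reach 0.0165 and 0.0193 CPM. Of the genes seen, 7 were seen in both libraries, among them *Hoxb4*, *Hoxb9* and *Hoxc13*, and *Hoxb5* was seen in PC20 only, with 1 UMI.

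To call genes on or off at one depth, 10500 UMIs were drawn at random from every cell (thinning), a step that left 8847 PC5 and 4474 PC20 cells and set aside 1103 and 275 shallower ones. A gene was called on where at least 1% of thinned cells held a UMI. It was called trace where the share was lower but above the highest share among 9 genes of other lineages (such as *Cd3e*, *Alb* and *Myh6*), which was 0.113% in PC5 and 0.179% in PC20. The background gene with the highest share was *Cd79a* in PC5 and *Slc17a7*, a gene of neurons, in PC20. In PC5, 2 of 39 genes were on, *Hoxb9* among them, and *Hoxb8* was at trace level. In PC20 no *Hox* gene was on, and 1 was at trace level. Of all listed genes, 37.6% were on in PC5 and 36% in PC20, and 46.8% and 42.2% were above the background limit, against 3 and 1 of 39 *Hox* genes. These counts depended on the setting, as 1 gene was on in PC5 when cells were thinned to 5000 UMIs or at least 5% of cells were required. In PC20, 1 gene was on without thinning or at a limit of 0.5%, and none was above background when *Gad2*, a gene of inhibitory neurons that was itself on in PC20, was kept among the background genes.

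**Figure D1:**
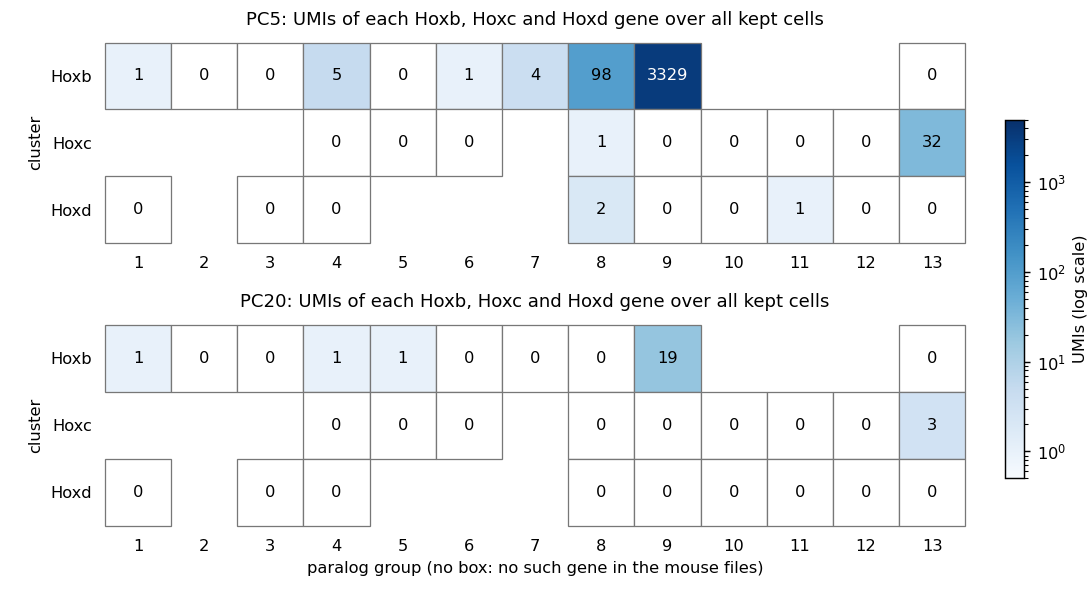
UMIs of each *Hoxb*, *Hoxc* and *Hoxd* gene over all kept cells, with clusters as rows and paralog groups as columns, PC5 above and PC20 below. The number in a box is the count of UMIs and the shade follows it on a log scale; the PC5 grid has its high values at *Hoxb9* (3329), *Hoxb8* (98) and *Hoxc13* (32), and the PC20 grid at *Hoxb9* (19).

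Summed over the family, PC5 held 3897 *Hox* UMIs and PC20 held 118. The summed level of 17.5 CPM (16.9 to 18.0) in PC5 was 28.3-fold that of PC20, 0.617 CPM (0.511 to 0.739), and the log2 of PC5 over PC20 was 4.82 (4.56 to 5.10). *Hoxb9* gave 85.4% (84.3 to 86.5) of the *Hox* UMIs in PC5 and 16.1% (9.98 to 24.0) in PC20.

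Most of these UMIs came from the *Hoxb* cluster in PC5. The *Hoxb* cluster, 10 genes on chromosome 11, held 3438 UMIs in PC5 but 22 in PC20, with a log2 ratio of 7.07 (6.46 to 7.74). The *Hoxc* cluster, 9 genes on chromosome 15, held 33 and 3 UMIs, and the *Hoxd* cluster, 9 genes on chromosome 2, held 3 and 0. Thus *Hoxd* stayed at or under the floor of 3 UMIs in both libraries as a whole cluster, and 7 of its 9 genes had no UMI in either.

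The UMIs of *Hoxb9* were not shared by the genes most like it. Its paralogs *Hoxa9*, *Hoxc9* and *Hoxd9*, the other 3 members of group 9, had 0 UMIs in both libraries.

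*Hoxb9* (ENSMUSG00000020875), which helps to set the identity of the thoracic region, had the most UMIs of the *Hox* genes in PC5. The PC5 library held 3329 *Hoxb9* UMIs in 2506 cells and the PC20 library 19 UMIs in 16 cells. PC5 cells thus had 14.9 CPM (14.4 to 15.4) of *Hoxb9* and PC20 cells 0.0994 CPM (0.0599 to 0.155), a ratio of the counted UMIs, background included, of 150.1 (log2 ratio 7.23, 6.58 to 7.96). Within PC5 this was a middling level, as 45.8% of the 11682 genes that were on had a lower CPM, and the median of those genes was 17.4 CPM. After thinning, 13.8% (13.1 to 14.5) of PC5 cells and 0.112% (0.0363 to 0.261) of PC20 cells held a *Hoxb9* UMI, and without thinning 25.2% and 0.337%. The PC20 share lay below the background limit, so that *Hoxb9* is not called present in PC20. That limit, 0.179%, was set by *Slc17a7* alone. The next highest background gene, *Cd79a*, was at 0.0671%, below *Hoxb9*, so the call depends on keeping *Slc17a7* among the background genes. Of the PC20 cells with a *Hoxb9* UMI, 13 held 1 UMI and 3 held 2. In a single PC20 cell, *Slc17a7* and *Cd79a* reached at most 1 UMI and the background gene *Hbb-bs* 2. What this means for the call was not tested. The 16 PC20 cells with a *Hoxb9* UMI were set beside the other PC20 cells. The epithelial genes *Krt18* and *Wfdc2* were at 822 and 373 CPM in these 16 cells and at 913 and 369.5 CPM in the others. *Six3*, *Col3a1* and *Eng* were lower in the 16 cells, at 123, 74.0 and 2.00 CPM against 194, 101 and 2.74 CPM. *Col1a2*, *Tagln* and *Thy1*, genes that were common in PC5, had 0 UMIs in the 16 cells and stood at 0.0473, 0.231 and 0.0263 CPM in the other PC20 cells. At levels so low, 0 UMIs in 16 cells cannot show whether the cells are alike. None of these 16 cells carried a barcode shared with PC5.

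*Hoxb8* (ENSMUSG00000056648), the next gene of the cluster after *Hoxb9* and known for its role in axial patterning and in mouse grooming, had 98 UMIs in PC5, spread over 97 cells, and none in PC20. The PC5 level was 0.439 CPM (0.357 to 0.535), at least 28.0-fold higher than in PC20 when PC20 is set at 3 UMIs over the library (lower limit of the log2 ratio 4.48). A *Hoxb8* UMI was found in 0.350% (0.238 to 0.497) of thinned PC5 cells and in 0.975% without thinning. With 0 of 4474 thinned PC20 cells, a share of up to 0.0671% (3 cells) is allowed, which limits the cells with a UMI and not the cells that express the gene.

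*Hoxc13* (ENSMUSG00000001655), which is required for hair and nail formation, had some of its few UMIs together in the same cells. So had *Hoxa5*, with 4 UMIs in 2 PC5 cells, and *Gad2*, with 57 UMIs in 41. PC5 held 32 *Hoxc13* UMIs in 24 cells, of which 20 held 1 UMI, 2 held 2 and 2 held 4. PC20 held 3 *Hoxc13* UMIs in 2 cells. In CPM this was 0.143 (0.0981 to 0.203) against 0.0157 (0.00324 to 0.0459), with a log2 ratio of 3.19 (1.52 to 5.54). The thinned shares, 0.102% and 0.0224%, were below both background limits. The 24 PC5 cells had *Tagln*, a smooth muscle gene, at 383 CPM against 219 CPM in the other PC5 cells, *Eng*, a receptor of the TGF-β family, at 188 against 96.7 CPM, and *Col3a1* at 549 against 1159.9 CPM. These genes were looked at after earlier values of these libraries were known, and 24 cells of 1 library are 1 sample.

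Of the 39 genes, 35 held at most 5 UMIs in each library. Among these, the highest were *Hoxb4* with 5 and 1 UMIs, *Hoxa5* with 4 and 1, *Hoxb7* with 4 and 0 and *Hoxa7* with 2 and 4, PC5 first. Intervals of the log2 ratio spanned 0 for each of these 4 (*Hoxb4* 2.10, -1.06 to 7.66; *Hoxa5* 1.78, -1.56 to 7.40; *Hoxa7* -1.22, -4.69 to 1.58; for *Hoxb7* the lower limit was -0.82), so no difference between the libraries was detectable for them at this depth. By the values alone, whatever their intervals, 6 of the 8 *Hox* genes with more than 3 UMIs in a library were more than 2-fold higher in PC5, with *Hoxb8* taken at its bound, and 1 in PC20. Among the 6 are *Hoxb4* and *Hoxa5*, and the gene higher in PC20 is *Hoxa7*, and the intervals of these 3 span 0. Among the 18294 genes tested in this way, 27.4% and 19.8% were more than 2-fold higher in PC5 and in PC20.

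**Figure D2:**
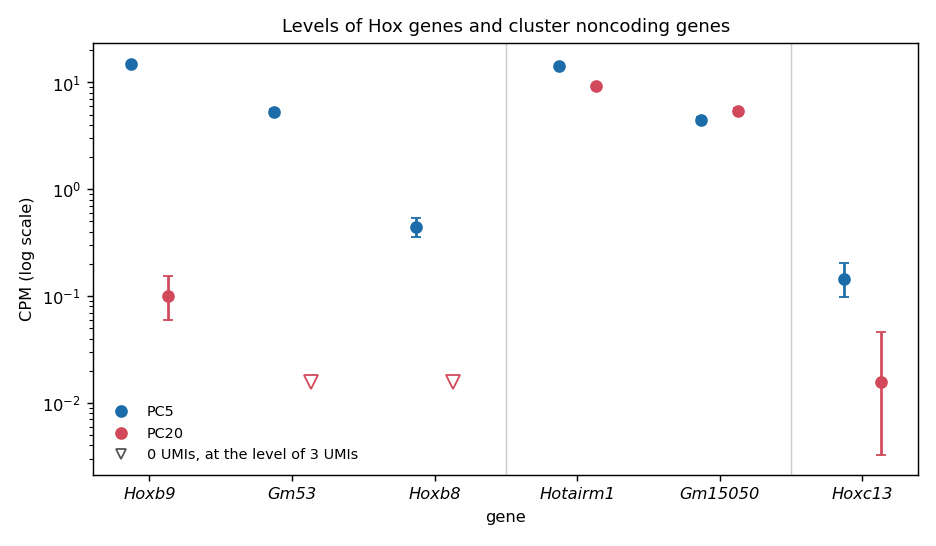
Levels in CPM on a log axis of 3 *Hox* genes and of noncoding genes in their clusters, PC5 in blue and PC20 in red, with exact 95% Poisson intervals; open triangles stand at the level of 3 UMIs for genes with 0 UMIs. *Hoxb9*, *Gm53* and *Hoxb8* of the *Hoxb* cluster fall to or near the floor in PC20, whereas *Hotairm1* and *Gm15050* of the *Hoxa* cluster stay within 2-fold.

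The noncoding genes that lie among the *Hox* genes differed between the *Hoxa* and *Hoxb* clusters. Of 17 other listed genes inside the cluster spans, 3 were on in PC5, 2 in PC20, and 12 had no UMI in either library. Over all listed genes, 37.6% were on in PC5 and 36% in PC20, and 66.3% and 61.7% had a UMI. *Gm53* (ENSMUSG00000078706), a long noncoding RNA gene on the strand of *Hoxb9* that ends 6589 bases before it, between *Hoxb13* and *Hoxb9*, had 1189 UMIs in PC5 and 0 in PC20. Its PC5 level was 5.33 CPM (5.03 to 5.64), at least 339.6-fold higher than in PC20 when PC20 is set at 3 UMIs over the library (lower limit of the log2 ratio 8.11), and thinned cells with a UMI were 5.10% and 0% (10.8% and 0% without thinning). *Hoxb13*, on its other side, had no UMI in either library, nor had the antisense genes *Hoxb5os* and *Hoxb3os*. So nearly all UMIs of the *Hoxb* cluster in PC5 fell on 1 stretch of neighbouring genes, *Gm53*, *Hoxb9* and *Hoxb8*, which held 1189, 3329 and 98 UMIs, while the next gene, *Hoxb7*, held 4.

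In the *Hoxa* cluster 2 noncoding RNAs were on in both libraries. *Hotairm1* (ENSMUSG00000087658), an antisense RNA known from myeloid cells, had 3173 UMIs in PC5 and 1753 in PC20. The levels were 14.2 CPM (13.7 to 14.7) and 9.17 CPM (8.75 to 9.61), PC5 first, with a log2 ratio of 0.63 (0.55 to 0.72). A UMI of *Hotairm1* was found in 14.1% and 9.66% of thinned cells (25.8% and 27.2% without thinning). *Hotairm1* thus stayed within 2-fold. Noncoding genes of the *Hoxa* cluster overlap coding genes on the other strand, and the sources used here do not state whether reads were counted by strand, so that some UMIs of one could belong to the other.

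*Gm15050* (ENSMUSG00000087626), an antisense RNA gene inside the span of *Hoxa3*, was also on in both libraries. It had 995 UMIs in PC5 and 1027 in PC20, which gave 4.46 CPM (4.19 to 4.75) and 5.37 CPM (5.05 to 5.71), a log2 ratio of -0.27 (-0.40 to -0.14). Coding genes around it were near silent, with 2 UMIs of *Hoxa3* in PC5 and 0 in PC20, and 0 UMIs of *Hoxa4* in both. *Hoxaas3*, a longer antisense RNA that begins next to it, had 6 and 11 UMIs. *Hotair* of the *Hoxc* cluster and *Hottip*, beside *Hoxa13*, which are known to act on chromatin at *Hox* genes, had 0 UMIs in both libraries.

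Genes just beyond the edges of the clusters were mostly expressed. Of the 24 coding genes that flank the 4 spans, 3 on each side, 19 were on in both libraries. Over all listed genes, coding or not, 37.6% were on in PC5 and 36% in PC20. Only coding genes were taken for the flanks, so these shares are not like for like. *Cbx3*, *Snx10* and *Skap2*, the 3 on one side of *Hoxa*, were at 322, 57.2 and 16.6 CPM in PC5 and at 195, 61.6 and 19.8 CPM in PC20. *Evx1* and *Evx2*, homeobox genes at the group 13 end of the *Hoxa* and *Hoxd* clusters, had 0 UMIs in both, as had the other 4 members of a list of *Hox*-like genes (*Gsx1*, *Gsx2*, *Pdx1* and *Mnx1*). The other 3 flanking genes not on in both lay beside *Hoxb*. *Ttll6* had 1 UMI in PC5 and 118 in PC20, *Calcoco2* had 11 and 45, and *Skap1* had 145 and 28, so that the flanks of *Hoxb* did not all move in the direction of *Hoxb9*.

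**Figure D3:**
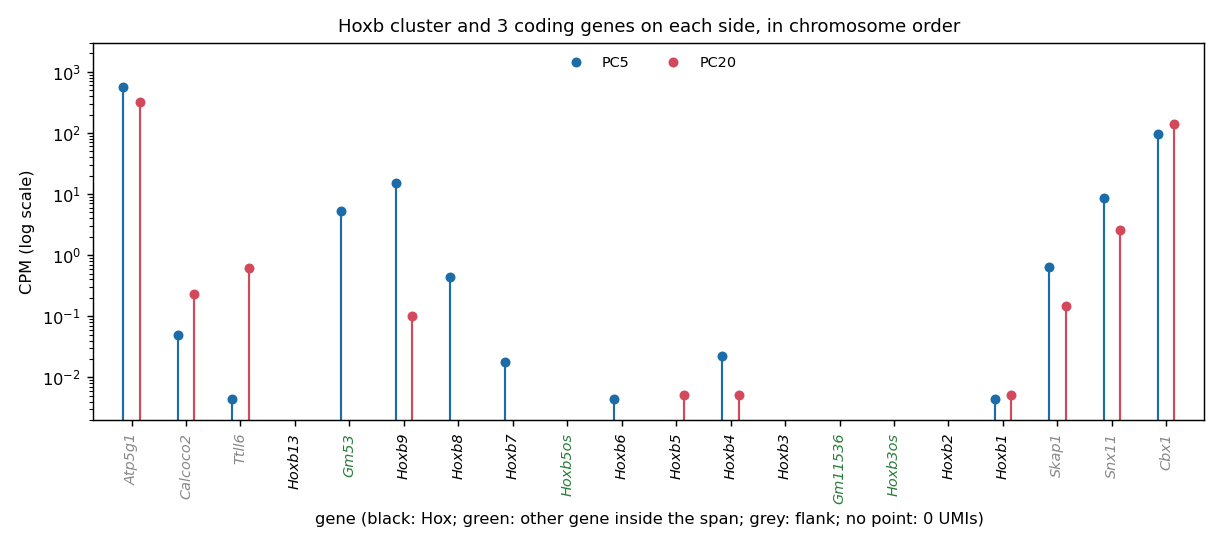
Level in CPM (log axis) of each listed gene of the *Hoxb* span and of the 3 coding genes on each side, in chromosome order with equal spacing, PC5 in blue and PC20 in red; genes without a point had 0 UMIs. The signal sits on *Gm53*, *Hoxb9* and *Hoxb8* in PC5, between flanks that hold genes at higher levels on both sides.

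In single cells, *Hox* RNA was sparse and spread widely. Any *Hox* UMI was found in 15.7% (14.9 to 16.5) of thinned PC5 cells and 0.693% (0.471 to 0.982) of thinned PC20 cells, and without thinning in 28.9% (28.0 to 29.8) and 2.30% (1.89 to 2.76). Of the unthinned PC5 cells, 2712 held UMIs of 1 *Hox* gene, 156 of 2 and 5 of 3 or more. In PC20, 109 cells held UMIs of 1 *Hox* gene and 0 of 2. Cells seen without a *Hox* UMI are not thereby without *Hox* RNA, since the mean was 0.335 *Hoxb9* UMIs per PC5 cell.

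The spread of *Hoxb9* over PC5 cells was set beside that of a Poisson distribution, which is what one rate for all cells would give. Among thinned PC5 cells, 1219 held a *Hoxb9* UMI, 132 of them 2 or more, where a Poisson distribution of the same mean has 94.7 cells with 2 or more. For *Hotairm1* the numbers were 96 and 93.0. Without thinning, 642 PC5 cells held 2 or more *Hoxb9* UMIs against 447, with a variance of 1.30 times the mean, in cells that differ in depth. In thinned cells the variance was 1.07 times the mean for *Hoxb9*, 1.01 for *Hotairm1* and 1.02 for *Gm53*, against 1 for a Poisson distribution, and at so few UMIs per cell this ratio says little of how cells differ. The ratio of 2.00 for *Hoxc13* rested on 1 of its 9 cells, which held 3 or more UMIs. Over 4 groups of 2487 or 2488 unthinned PC5 cells, formed by total UMIs, *Hoxb9* was at 12.9, 13.9, 15.6 and 15.6 CPM from the shallowest to the deepest cells.

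Pairs of genes of the clusters were counted in the same thinned PC5 cells and set beside the number that the product of their shares gives. *Hoxb9* and its neighbour *Gm53* were found together in 86 cells (68.8 to 106) where the product gives 62.1. *Hoxb9* and *Hotairm1*, which lie on different chromosomes, were found together in 169 cells where it gives 172. *Hoxb8* and *Hoxb9* were found together in 6 cells against 4.27. *Hoxb8* and *Hotairm1*, also on different chromosomes, were found together in 10 cells (4.80 to 18.4) against 4.36. An excess over the product was thus not limited to pairs within a cluster. These are descriptions of cells from 1 library that share a depth of 10500 UMIs.

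Across kinds of PC5 cell, *Hoxb9* was present throughout with modest differences in level. Thinned cells were split 13 ways, by *Mki67* or *Top2a* UMIs and by UMIs of 12 other genes, and the level of *Hoxb9* ran from 12.6 CPM in cells with *Thy1* UMIs to 22.0 CPM in cells with *Cspg4* UMIs. Cells with a UMI of *Mki67* or *Top2a*, genes of dividing cells, had 14.4 CPM (13.1 to 15.8) and those without had 14.8 CPM (13.8 to 15.8). Cells with UMIs of *Cspg4*, which encodes the PC marker NG2, had 22.0 CPM (17.8 to 26.8) against 14.3 CPM (13.5 to 15.1) in cells without. Cells with UMIs of *Pdgfrb*, also a PC marker, had the lower level, 13.1 CPM (11.9 to 14.4) against 15.5 CPM (14.5 to 16.5). For *Rgs5*, the PC marker with the fewest cells here, the levels were 13.02 CPM (7.84 to 20.3) in 139 cells with UMIs and 14.7 CPM (13.9 to 15.5) in those without. Of these PC markers, *Cspg4* went with higher and *Pdgfrb* with lower *Hoxb9*, and the *Rgs5* split was within counting error.

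Of the other splits, those by *Postn*, *Hgf* and *Thy1* had the widest gaps in *Hoxb9*. Cells with UMIs of *Postn*, which encodes the matrix protein periostin, had 17.2 CPM (15.8 to 18.8) against 13.5 CPM (12.6 to 14.4). Cells with UMIs of *Hgf*, which encodes a growth factor, had 18.9 CPM (16.04 to 22.17) against 14.3 CPM (13.5 to 15.1). Cells with UMIs of *Thy1*, a surface protein of fibroblasts and neurons, had 12.6 CPM (11.4 to 13.8) against 15.8 CPM (14.9 to 16.9). *Gm53* shared the *Postn* difference, with 6.73 CPM (5.83 to 7.74) against 4.26 CPM (3.77 to 4.80). Over the same 13 splits *Hotairm1* ran from 13.02 CPM, in the 139 cells with *Rgs5* UMIs, to 16.6 CPM. Among *Hoxb9*, *Gm53* and *Hotairm1*, *Hotairm1* varied least as a ratio of highest to lowest level. In CPM the range of *Gm53*, from 4.26 to 6.73, was narrower.

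**Figure D4:**
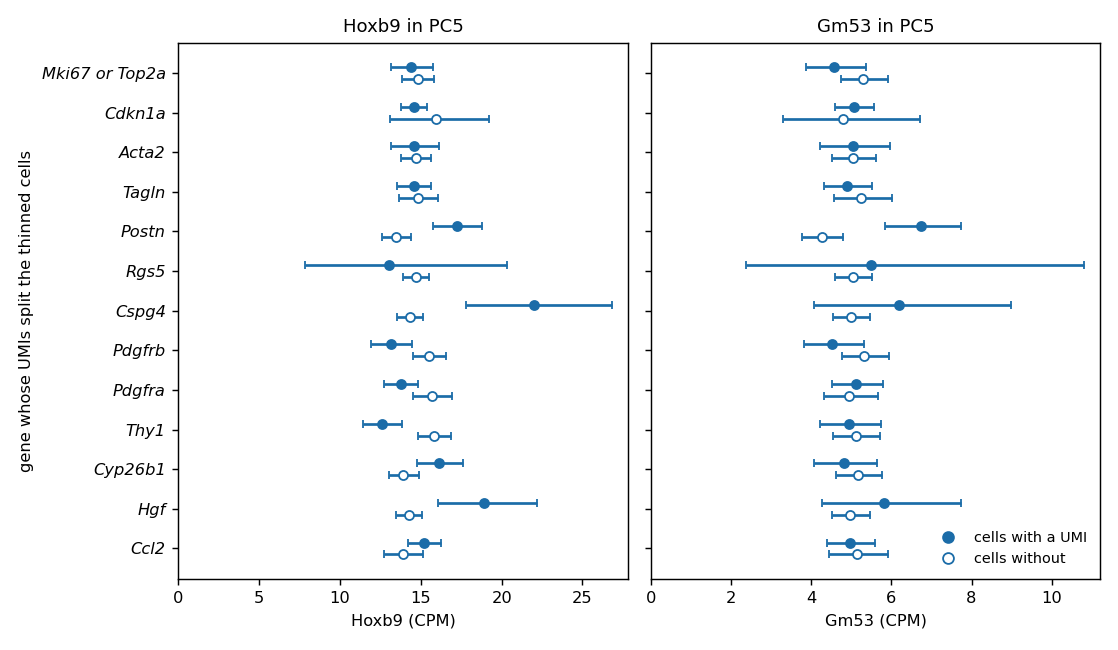
Level in CPM of *Hoxb9* (left) and *Gm53* (right) in thinned PC5 cells with a UMI of the gene named on the vertical axis (filled points) and without (open points), with exact 95% Poisson intervals. *Hoxb9* lies between 12.6 and 22.0 CPM in every split, and cells with *Postn* UMIs are higher for both genes.

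In PC20 the noncoding *Hoxa* RNAs were higher in cells that held no UMI of the division genes after thinning. There were 1870 such cells, whereas 1208 PC20 cells of this depth held no such UMI before thinning. Thinned PC20 cells without *Mki67* or *Top2a* UMIs had *Hotairm1* at 13.04 CPM (11.5 to 14.7) and those with such UMIs at 7.42 CPM (6.44 to 8.52). *Gm15050* was at 7.79 CPM (6.61 to 9.13) and 3.99 CPM (3.27 to 4.81) in the same cells. In PC5 the levels were 15.1 CPM (14.1 to 16.1) and 13.6 CPM (12.3 to 14.9) for *Hotairm1* and 4.54 CPM (4.02 to 5.12) and 4.09 CPM (3.43 to 4.84) for *Gm15050*. Whether these gaps differ between the libraries was not tested.

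Hox proteins bind DNA together with cofactors of the Pbx, Meis and Pknox families, and all 9 listed cofactors were on in both libraries. The share of all listed genes that were on was 37.6% in PC5 and 36% in PC20. *Meis2* had 117 CPM in PC5 and 83.8 in PC20 and *Pbx2* had 17.9 and 15.0 CPM, both within 2-fold. *Meis3*, which acts with *Hox* genes in the hindbrain, was the only cofactor over 2-fold higher in PC5, at 12.2 CPM against 1.40 CPM, a log2 ratio of 3.12 (2.94 to 3.31). *Pbx3* and *Pbx4*, named after their values were seen, were over 2-fold higher in PC20, with log2 ratios of -1.09 and -1.74. The median log2 ratio of the 9 was -0.02, beside 0.04 over the 12283 genes on in a library, of which 21.7% were over 2-fold higher in PC5 and 18.8% in PC20.

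Nearly all listed genes that keep *Hox* clusters active or silent were on in both cultures too, beside 37.6% of all listed genes in PC5 and 36% in PC20. Of 10 trithorax-group genes, which sustain transcription at *Hox* genes, 10 were on in both libraries and 8 stayed within 2-fold, with a median log2 ratio of -0.20. *Kmt2a*, a histone methyltransferase first known for its hold on *Hox* genes, had 80.2 CPM in PC5 and 57.0 in PC20. *Psip1*, whose product tethers that enzyme to chromatin, was at 50.0 and 214 CPM (log2 ratio -2.10), and *Kdm6b*, which removes the polycomb mark, at 74.6 and 30.8 CPM (log2 ratio 1.27). Of 26 polycomb genes, which hold *Hox* clusters silent, 25 were on in PC5 and 26 in PC20, with a median log2 ratio of -0.55. In that list 4 genes were over 2-fold higher in PC5, 6 in PC20 and 16 were within 2-fold. Of all genes on in a library, 21.7% were over 2-fold higher in PC5 and 18.8% in PC20, so these counts do not set the list apart. *Ezh2*, the enzyme that sets the polycomb mark, had 45.4 CPM in PC5 and 95.5 in PC20 (log2 ratio -1.07), and its partner *Suz12* had 65.9 and 98.0 CPM.

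Of 13 regulators upstream of *Hox* genes, 8 were on in PC5 and 6 in PC20, beside 37.6% and 36% of all listed genes. *Cdx1* and *Cdx2*, which switch on posterior *Hox* genes in the embryo, had 0 UMIs in both libraries. *Cdx4*, of the same family and named after its values were seen, had 10 UMIs in 9 PC5 cells and 0 in PC20, at 0.0448 CPM (0.0215 to 0.0824) in PC5. The background gene *Cd79a* had 19 UMIs in PC5, so the *Cdx4* count is not read as expression. Among receptors for retinoic acid, the signal that switches on anterior *Hox* genes, *Rara* had 25.6 CPM in PC5 and 26.8 in PC20, and *Rarg* was at 12.5 and 29.1 CPM (log2 ratio -1.22). *Egr2*, which regulates *Hox* genes in the hindbrain and was named after its values were seen, was on in PC5 only, at 3.07 CPM against 0.518 CPM. The median log2 ratio of the 8 genes on in a library was 0.23.

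**Figure D5:**
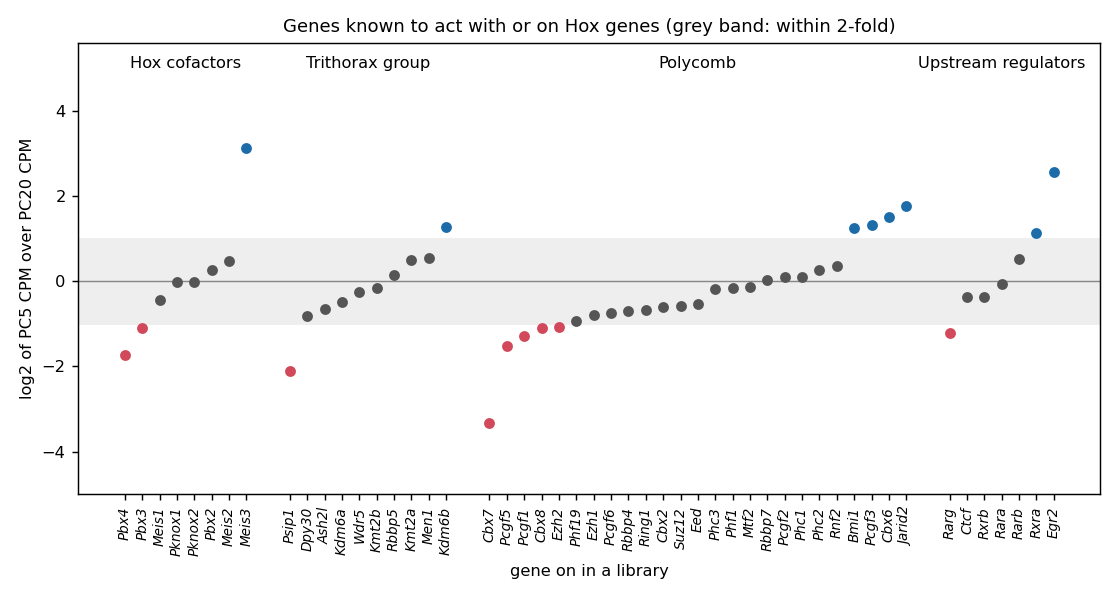
Log2 ratio of PC5 CPM over PC20 CPM for the genes reported here that were on in a library, in 4 lists of genes known to act with or on *Hox* genes, each list sorted by its values; the grey band covers 2-fold either way. Most points lie in or near the band, with *Meis3* and *Egr2* the highest and *Cbx7* and *Psip1* the lowest.

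Position genes that are used ahead of or beside the *Hox* region were compared with the *Hox* genes. Of 15 genes of the anterior neural plate, 2 were on in PC5 and 7 in PC20, beside 37.6% and 36% of all listed genes. *Six3*, *En1* and *Pax6*, which mark the anterior forebrain, the border of midbrain and hindbrain, and the eye and forebrain, were at 0.466, 0.224 and 0.220 CPM in PC5 and at 193, 27.4 and 25.0 CPM in PC20. Thus 6 of the 7 genes on in a library were over 2-fold higher in PC20, opposite in direction to *Hoxb9*. Among all genes on in a library, 18.8% were over 2-fold higher in PC20.

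Of 33 position genes of mesenchyme, 19 were on in PC5 and 13 in PC20, and 14 of the 22 on in a library were over 2-fold higher in PC5 against 5 in PC20. Of all listed genes, 37.6% were on in PC5 and 36% in PC20. Of all genes on in a library, 21.7% were over 2-fold higher in PC5 and 18.8% in PC20. *Prrx1* and *Twist1*, general mesenchymal factors, stayed within 2-fold at 183 and 111 CPM in PC5 and at 210.4 and 87.5 CPM in PC20. *Tbx18*, used in mural cells and heart, had 120 CPM in PC5 and 0.424 in PC20, and *Foxc1*, a gene of head mesenchyme and meninges, at 108 and 25.9 CPM. *Tbx18* had a log2 ratio of 8.14 (7.83 to 8.48), above the 7.23 of *Hoxb9*. *Zic1*, used in the dorsal neural tube and meninges, and *Pitx1*, used in the hindlimb and the mouth, named after their values were seen, had UMIs in 1 library each, with 15177 *Zic1* UMIs in PC5 and 0 in PC20 and with 0 *Pitx1* UMIs in PC5 and 11737 in PC20.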

How the data were processed

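Single cell RNA sequencing counts were analysed for 2 libraries, PC5 and PC20, each 1 sample (n = 1 per passage). The deposited values are raw UMI counts per gene and cell, which the authors made with Cell Ranger 5.0 and the mm10 genome build, per the labels and the study's methods. No per-sample column was left out. Kept cells had more than 1000 genes and under 20% mitochondrial UMIs. No doublet caller was run and no cells were removed as doublets, so doublets may remain. Counts were summed per library for CPM. For shares, cells were thinned without replacement to 10500 UMIs (seed 1). Intervals were exact Poisson for CPM, Clopper-Pearson for shares and exact conditional binomial for ratios. A library with 0 UMIs was set at 3 UMIs for a ratio, which is then a lower bound. Depth was 223054273 UMIs in PC5 and 191122251 in PC20, so that 3 UMIs correspond to 0.0134 and 0.0157 CPM.

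The *Hox* genes were matched by symbol, and 39 of 40 identifiers were found in GENCODE M21 (GRCm38), from which positions and homeoboxes were read. Genes were named by rule: *Hox* genes with more than 3 UMIs in a library, noncoding genes on inside a cluster, and at most 4 genes of each list by highest CPM in either library, with other list genes named as chosen after their values were seen. The genes and lists were chosen with earlier results of these data known. *Gad2* was dropped from the 10 background genes after the data were seen, as it was on in PC20. Python 3.11.15, numpy 2.4.6, scipy 1.17.1 and pandas 2.3.3 were used, and the counting steps were tested on simulated data. Alternatives to the cell filter, thinning, calling limit, library size and centring were computed. A few genes are not reported here.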

Additional observations from a re-analysis of the deposited data

How the results depend on the processing

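Of 86 values recomputed under other settings, 72 were counted as the same as the value given, 14 as moved and 0 as reversed. Some of these could not move. With every deposited barcode the thinned cells were the same 8847 and 4474, and centring changed the PC20 total only, which left the PC5 sum as it was. A log2 ratio counted as the same if it fell inside the interval of the value given, however wide. It could count as reversed only where that interval excluded 0. So *Hoxa5*, at 1.78, counted as the same at -1.09, a bound, in cells without *Mki67* or *Top2a* UMIs. The number of *Hox* genes on in PC5 was 1 when cells were thinned to 5000 UMIs and 1 when at least 5% of cells were required. The number on in PC20 was 1 without thinning and 1 at a limit of 0.5%, and the number above background in PC20 was 0 with *Gad2* among the background genes (it was left out after seeing the data). The share of cells with a *Hox* UMI was 28.9% in PC5 and 2.30% in PC20 without thinning, and 7.72% and 0.280% when thinned to 5000 UMIs. The summed *Hox* level was 26.3 CPM in PC5 and 0.916 CPM in PC20 when mitochondrial and ribosomal genes were left out of the library size, and 0.770 CPM in PC20 cells without *Mki67* or *Top2a* UMIs. The log2 bound for *Hoxb8* fell to 2.27 in those cells and to 2.39 in thinned cells, as fewer UMIs were counted. The log2 ratio of *Hoxb9* stayed between 6.84 and 7.25 over 7 alternatives. In 9 cases, each of 1 gene under 1 setting, a log2 ratio had no value. Both libraries were then at or under 3 UMIs or, for a mean over cells, 1 was at 0. No replicate could be left out, with 1 library per passage. No paired analysis was possible because the passages share only replicate number 1. At this depth a gene at or under 3 UMIs per library cannot be told from one that is silent. The 9 background genes held up to 19 UMIs in PC5 and 18 in PC20, so counts of that size are not read as expression either.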
